A study of Mus musculus with 4 samples.

Results

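Tight junction genes were followed in the mouse cochlea after loss of the outer hair cells (OHCs). The members were the claudins, the MARVEL proteins, the junctional adhesion molecules with *Esam*, the cytoplasmic plaque proteins and the Par polarity proteins, matched by gene name, with *Cldn11* left out, and the set was drawn up with the *Cldn22* values already known. The array carries 58 probes for 44 such genes, and 38 of them had a probe well above background on at least 1 array, out of 21961 genes on the array that did. The other 6, *Cldn1*, *Cldn17*, *Cldn18*, *Cldn20*, *Cldn26* and *Pard6b*, were not well above background on any array. Just outside this limit lay *Pard6b*, at -5.99, -5.97, -5.81 and -6.08 on a log2 scale explained below, and just inside it *Cldn16*, at -6.63, -5.76, -5.92 and -6.53, of which only the third value was above background. Of the 38 members, 30 were well above background on all 4 arrays, 4 on 3 arrays, 2 on 2 arrays and 2 on 1 array. For each gene the brightest probe was used. The names are those of the array design, and by accession the probe named *Cldn25* belongs to *Cldnd1* and the probe named *Cldn26* to *Tmem114*, both relatives of the claudins.

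The groups were untreated wild-type mice (wild-type controls), wild-type mice given diphtheria toxin (DT), untreated *Prestin*-*hDTR* mice (OHC-TRECK in the labels, here *hDTR* controls) and *Prestin*-*hDTR* mice given DT, named ablated mice below, and values are given in that order of groups. All were of the B6J strain and 5 weeks old, and DT was given at 50 μg/kg 7 days before the cochleae were taken. *Prestin*-*hDTR* mice of 1 transgenic line carry the human DT receptor (human HB-EGF) under the promoter of *Slc26a5*, the gene of the OHC motor protein prestin, so that DT kills the cells in which this promoter is active. The submitters give a sample size of 8, with 4 females and 4 males, and label the sexes as pooled, and each group has 1 array, so that no difference has a replicate check, and no p-value is given. A value below is the log2 signal of a probe relative to the 75th percentile of its array, and it may be compared between arrays but not between probes. A probe was called changed at 2-fold or more. Between repeated spots of 1 probe the median SD was 0.067 on the log2 scale, which covers the error within an array and not the spread between mice. The percentage of probes well above background was 67.0%, 62.5%, 70.6% and 62.2% in the 4 groups. Where a probe was dim on 1 array of a pair, it was set against the lowest signal well above background there, unless its own was higher, and the fold is then written as at least that value.

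Tight junctions join neighbouring epithelial or endothelial cells near their apical side. Claudins form the paired strands that seal the gap between cells or let chosen ions through, occludin and the other MARVEL proteins organise the strands and the points where 3 cells meet, and the ZO proteins tie the strands to the actin skeleton. In the cochlea these junctions keep the potassium-rich endolymph above the hair cells apart from the perilymph below them, and when an OHC dies its neighbouring supporting cells expand to close the surface. Loss of *Cldn9*, *Cldn14*, *Cldn11* or *Marveld2* causes deafness in mice.

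The OHC markers went with the labels. *Strc* (stereocilin) lay at -2.03 in wild-type controls, -1.87 in DT-treated wild-type, -1.83 in *hDTR* controls and -4.93 in ablated mice, 8.57-fold lower in the last than in *hDTR* controls. *Chrna10*, *Chrna9* and *Ocm* were 7.64-fold, 6.83-fold and 5.18-fold lower in that comparison, and these 4 of 7 OHC markers were also called lower against both wild-type arrays. The probe of *Slc26a5* itself was dim in ablated mice, at -6.07, after -4.89, -4.47 and -5.06 in the other groups. The 7 markers had a median difference of -2.44 from the mean of the other arrays over the 6 measured on all arrays, and their signals, divided by the 75th percentile and summed, came to 25.04, 23.12, 25.18 and 5.85, with *Ocm* the brightest. In whole-cochlea RNA, fewer cells of a type and less RNA per cell cannot be told apart.

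The largest changes among the members came from *Cldn22* and *Cldn24*, claudins with few functional studies that lie side by side on chromosome 8. Their probes are given because the results turn on them, and the region upstream of *Cldn22* is given for the motif search below. For the *Cldn22* probe (mm9 chr8:48910761-48910820, plus strand, starting 925 bases into the transcript) the first 30 of 60 bases are shown. The *Cldn24* probe (mm9 chr8:48908100-48908159, plus strand) is shown whole, and it ends in the stop codon of that gene.

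Cldn22 probe: tttactgtgcataaactaggctgcgactgt
Cldn24 probe: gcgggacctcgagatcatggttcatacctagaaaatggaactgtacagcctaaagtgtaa

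The longest run of bases that both probes share is 5, and no ungapped alignment of them matched more than 18 bases. The 250 bases before the start of *Cldn22* (RefSeq, GRCm38.p6 chr8:47824232-47824481, plus strand, another build than that of the probes) and of *Cldn4* (GRCm38.p6 chr5:134946935-134947184, minus strand), the third member that was called higher, read as follows, with matches to the AP-1 motif TGANTCA in capitals.

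Cldn22 upstream: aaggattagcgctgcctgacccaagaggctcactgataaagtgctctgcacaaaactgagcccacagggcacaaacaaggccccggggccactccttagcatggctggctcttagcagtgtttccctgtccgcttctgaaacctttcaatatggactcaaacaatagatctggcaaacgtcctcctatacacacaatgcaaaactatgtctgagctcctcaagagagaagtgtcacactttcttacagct
Cldn4 upstream: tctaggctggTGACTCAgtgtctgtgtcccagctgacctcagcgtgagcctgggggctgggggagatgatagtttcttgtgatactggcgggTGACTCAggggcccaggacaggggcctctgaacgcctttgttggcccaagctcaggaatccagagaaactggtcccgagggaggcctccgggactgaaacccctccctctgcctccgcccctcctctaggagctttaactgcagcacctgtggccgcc

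The *Cldn4* window holds 2 matches to TGANTCA, which begin 240 and 158 bases before the start, and the *Cldn22* window holds 0. Searched on both strands, TGANTCA is found in 6.75% of 32851 such windows, and in those of 3 of the 27 members with a window (*Cldn15*, *Cldn4* and *F11r*). The motif AACCNGTT of the Grhl factors, which drive junction genes in epithelia, is found in 1.79% of all windows and in 2 of the 27 members (*Cgn* and *Cldn5*). The motif GGAATG of the TEAD factors is found in 12.6% of all windows and in 6 of the 27 members, and the E-box CACCTG, bound by Snail and Zeb repressors of junction genes, in 17.2% and in 10 of the 27 members, *Cldn4* among them. The *Cldn22* window holds none of these 4 motifs. A match is a string of letters and not a measured site.

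*Cldn22* had a scanner intensity of 880.4 in wild-type controls, 1656 in DT-treated wild-type, 1347 in *hDTR* controls and 8326 in ablated mice. The corresponding log2 values were -1.63, -0.93, -1.16 and 1.42. The 3 arrays without OHC loss spanned 0.70 on the log2 scale, with wild-type controls lowest, and ablated mice lay above all of them. The signal of *Cldn22* in ablated mice was 5.98-fold that of *hDTR* controls, 5.09-fold that of DT-treated wild-type and 8.27-fold that of wild-type controls. These 3 comparisons share the array of the ablated mice and are not independent. *Cldn22* ranked 45 of 20020 genes from the largest rise against *hDTR* controls, 22 of 19522 against DT-treated wild-type and 9 of 20239 against wild-type controls.

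*Cldn24* was dim at -6.72 in wild-type controls, and lay at -4.86 in DT-treated wild-type, -5.02 in *hDTR* controls and -1.84 in ablated mice. The 4 arrays stood in the same order as for *Cldn22*, and ablated mice again stood above the rest. The rise was 9.05-fold over *hDTR* controls, 8.07-fold over DT-treated wild-type and at least 17.0-fold over wild-type controls, and it ranked 11, 5 and 2 among the genes of the 3 comparisons. These folds start from a signal near background in the other groups. With another background correction (normexp) the log2 ratio of *Cldn24* to *hDTR* controls was 2.38 in place of 3.18, below that of *Cldn22* under the same correction, 2.51.

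The next genes on either side did not rise with them. In the RefSeq gene order, *1700061N14Rik* and *Cldn24* come before *Cldn22*, and *Wwc2* and *Gm39173* after it, with no gene overlapping *Cldn22*. The probe of *Wwc2*, a regulator of the Hippo pathway on the other strand whose probe starts 2274 bases beyond that of *Cldn22*, lay at 2.50, 2.51, 2.56 and 2.41 in the order of groups above, a 1.11-fold lower signal in ablated mice than in *hDTR* controls. The noncoding *1700061N14Rik* lay at -4.42, -5.13, -4.67 and -5.04, and ablated mice lay inside the range of the other 3. *Gm39173* has no probe under that name. *Cdkn2aip*, further out on the side of *Cldn24*, lay at -2.50, -2.33, -2.42 and -2.67.

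**Figure D1:**
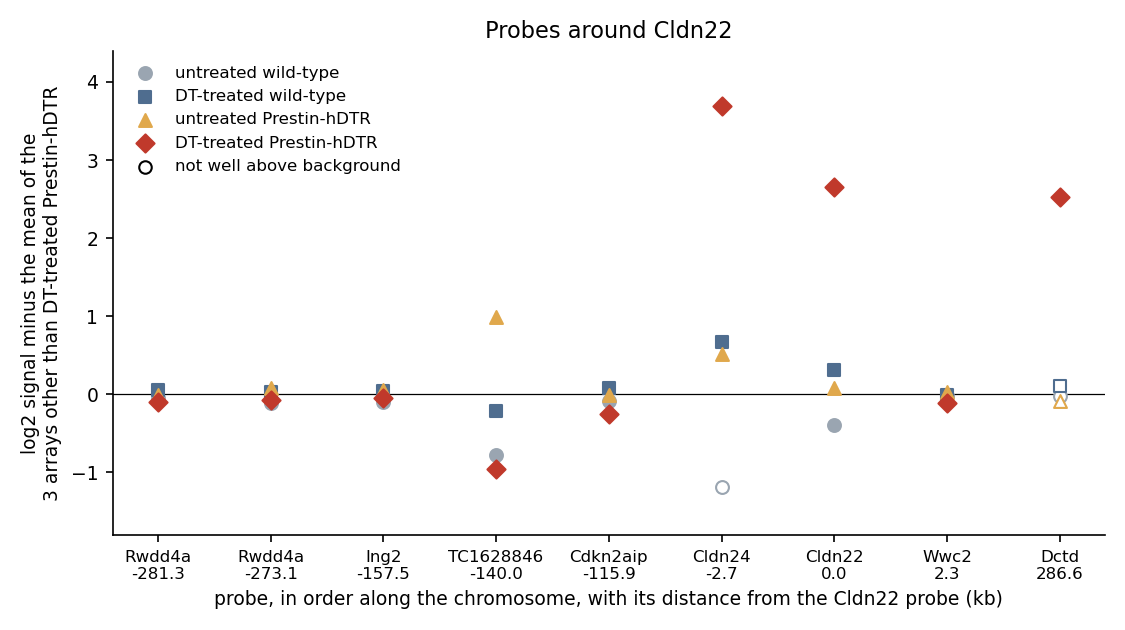
Probes within 300 kb of the *Cldn22* probe, in their order along the chromosome (horizontal axis, with the distance in kb), and their log2 signal on each array minus the mean of the 3 arrays other than ablated mice (vertical axis), with open symbols for probes not well above background, drawn as measured. *Cldn22* and *Cldn24* stand above 2 in ablated mice, *Wwc2*, *Cdkn2aip*, *Ing2* and *Rwdd4a* stay near 0 on all 4 arrays, the transcript *TC1628846* is highest in *hDTR* controls, and *Dctd* was well above background only in ablated mice.

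Against *hDTR* controls, 37 members could be compared, and ablated mice were 2-fold or more higher for 3 of them, *Cldn22*, *Cldn24* and *Cldn4*, and lower for 0. Over all 21468 genes compared, 2.71% were higher and 1.42% lower by this rule. The same 3 members were higher against DT-treated wild-type mice, where 1 of 37, *Cldn13*, was lower, beside 1.52% of all genes higher and 1.95% lower. They were also higher against wild-type controls (3 of 36 higher and 0 lower, beside 2.11% and 2.05% of all genes). DT alone in wild-type mice went with 2 higher members of 35, *Cldn13* and *Cldn24*, and 0 lower, beside 1.56% and 1.12% of all genes, and with another background correction (normexp) the call of *Cldn24* was lost. The transgene alone went with 0 of 37 members in either direction, beside 1.03% of all genes higher and 2.43% lower in *hDTR* controls than in wild-type controls. With 4 calls or fewer in a comparison, 1 gene moves these shares widely, and *Cldn22* was the only called member with a signal well above background on every array.

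*Cldn4*, a sealing claudin of epithelia, was the third member called higher. It lay at -5.33 in wild-type controls, -5.31 (not well above background) in DT-treated wild-type, -5.25 in *hDTR* controls and -4.14 in ablated mice. The first 3 values lay within 0.08 of each other and the last one above them, 2.16-fold over *hDTR* controls, at least 2.25-fold over DT-treated wild-type and 2.28-fold over wild-type controls. Its second probe lay at -6.44, -6.23, -5.89 and -4.64, the first 2 not well above background, and was 2.38-fold higher in ablated mice than in *hDTR* controls. With the normexp correction the log2 ratio of *Cldn4* to *hDTR* controls was 0.70 in place of 1.11, and it was no longer called.

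Below 2-fold, more claudins were higher in ablated mice than on the other arrays. *Cldn9*, a claudin of hair cells and supporting cells, lay at 2.02, 2.23, 2.21 and 2.90 in wild-type controls, DT-treated wild-type, *hDTR* controls and ablated mice, 1.61-fold higher in the last than in *hDTR* controls. *Cldn7*, of epithelial lateral membranes, lay at 1.44, 1.53, 1.502 and 2.17, a 1.59-fold difference. For both genes the 3 arrays without OHC loss lay close together and the fourth stood apart. A second *Cldn7* probe did not share this pattern, being well above background only in DT-treated wild-type (-5.00) and *hDTR* controls (-5.17).

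*Cldn5*, the main claudin of endothelial cells, lay at 1.83, 1.75, 1.95 and 2.51 in the same order, 1.47-fold higher in ablated mice than in *hDTR* controls. *Cldn3*, an epithelial sealing claudin of the *Cldn4* cluster on chromosome 5, lay at 1.68, 1.84, 1.89 and 2.35, 1.37-fold higher. *Cldn23* lay at -2.63, -2.65, -2.74 and -2.25, 1.41-fold higher. In all 3 the array of the ablated mice was highest, and its distance from the next array exceeded the range of the other 3. *Cldn8* and *Cldn19* were higher there by less, 1.21-fold and 1.24-fold.

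*Cldn14*, whose loss causes deafness, lay at -1.18, -1.10, -1.11 and -1.05, *Cldn12* differed by 1.07-fold and *Cldn25* by 1.01-fold between ablated mice and *hDTR* controls. These 3 were nearly level over the 4 arrays. *Cldn10*, which forms ion pores, was lowest in ablated mice, at -2.25, -2.79, -2.52 and -3.01 in the order above, but the 3 other arrays alone spanned 0.54 on the log2 scale. Of the claudins detected on some arrays only, the pore-forming *Cldn2* and the embryonic *Cldn6* were 1.48-fold and 1.41-fold higher in ablated mice than in *hDTR* controls and dim in wild-type mice. *Cldn15*, a sodium pore of the intestine, was dim in ablated mice and at least 1.34-fold lower than in *hDTR* controls. *Cldn16*, of the kidney, was well above background only in *hDTR* controls, at -5.92.

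**Figure D2:**
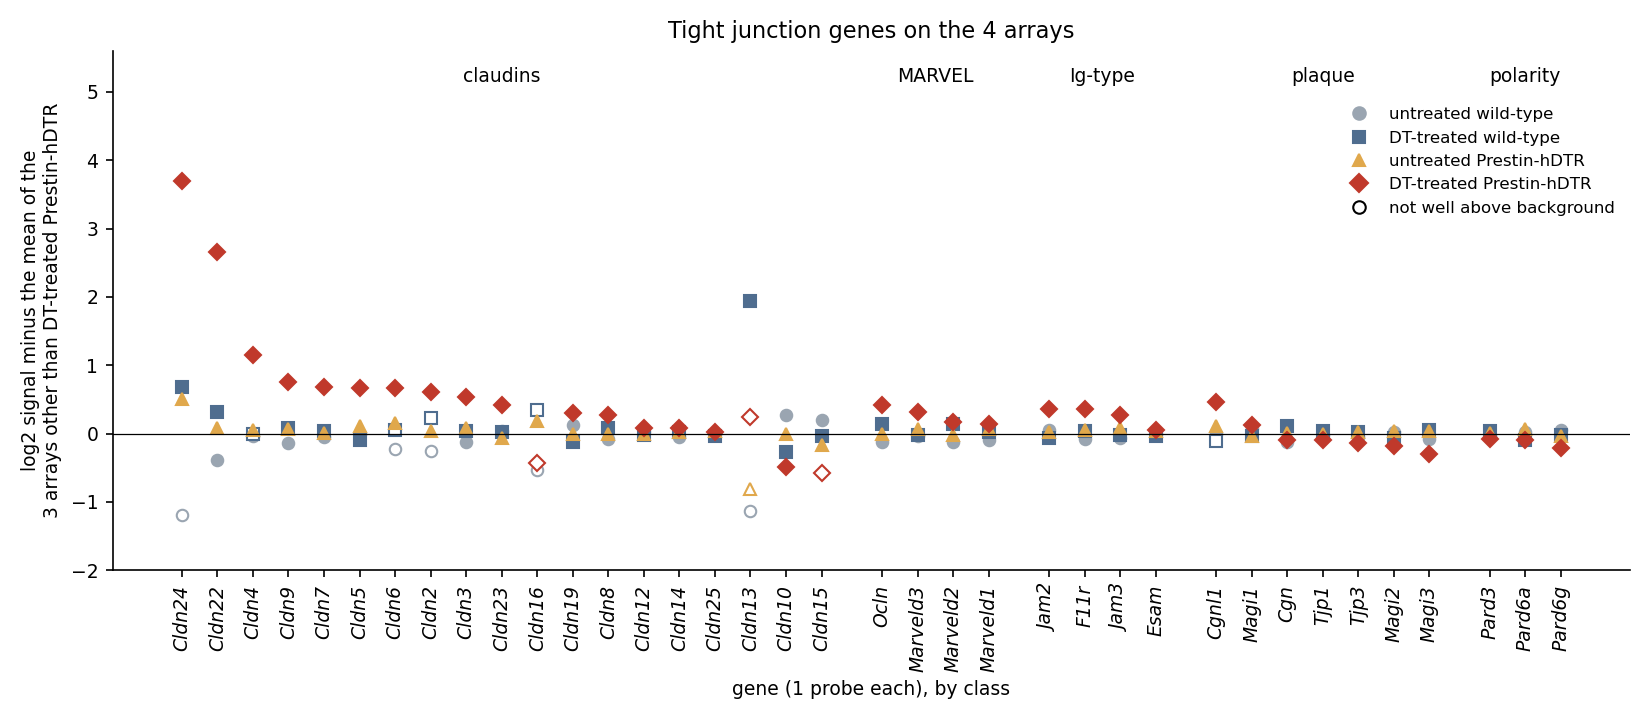
Log2 signal of 37 of the 38 members on each array minus the mean of the 3 arrays other than ablated mice (vertical axis), with 1 probe per gene, grouped by class (horizontal axis), and open symbols for probes not well above background, drawn as measured. In ablated mice, *Cldn24*, *Cldn22* and *Cldn4* stand above the other members, most further claudins, MARVEL and immunoglobulin-type members lie slightly above 0, plaque members lie on both sides of 0, from *Cgnl1* above to *Magi3* below, and polarity members lie slightly below 0, while *Cldn13* is high in DT-treated wild-type mice.

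The MARVEL proteins, of which occludin (*Ocln*) and tricellulin (*Marveld2*) line the strands and the tricellular contacts, were all highest in ablated mice but none reached 2-fold. *Ocln* lay at -0.995, -0.73, -0.88 and -0.45 in wild-type controls, DT-treated wild-type, *hDTR* controls and ablated mice, and *Marveld3* at -0.89, -0.87, -0.79 and -0.53. *Marveld2* lay at -1.89, -1.62, -1.79 and -1.60, so that DT-treated mice of both genotypes differed by 0.02 on the log2 scale. *Marveld1* was 1.06-fold higher in ablated mice than in *hDTR* controls. Where *Ocln* and *Marveld3* had a second probe on all 4 arrays, it differed in the same direction, with a log2 difference from the mean of the other 3 arrays of 0.36 for *Ocln* and 0.38 for *Marveld3*.

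Among the immunoglobulin-type adhesion proteins, which join cells alongside the strands, *Jam2* lay at 0.84, 0.72, 0.80 and 1.15 and *F11r* (JAM-A) at 2.10, 2.21, 2.23 and 2.54. Both were highest in ablated mice, 1.27-fold and 1.24-fold over *hDTR* controls, and *Jam3* was 1.15-fold higher. The 3 probes of *Jam2* differed in size, with log2 differences from the mean of the other arrays between 0.04 and 0.36. The endothelial *Esam* lay at 0.00, -0.03, 0.05 and 0.07, a difference of 1.01-fold between ablated mice and *hDTR* controls.

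The cytoplasmic plaque genes had no common direction. *Tjp1* (ZO-1) lay at 2.22, 2.28, 2.23 and 2.15 and *Tjp3* (ZO-3) at 0.99, 1.07, 1.08 and 0.90. Both scaffolds, which tie the strands to actin, were lowest in ablated mice by little. The scaffold *Magi3* lay at -2.11, -1.98, -1.99 and -2.33, the lowest class member against the other arrays, with a difference of -0.31, and its second probe gave -0.25. *Magi2* lay at -4.72, -4.82, -4.72 and -4.94. The first probe of *Magi1* was 0.13 above and the second 0.30 below the mean of the other arrays, so that no direction can be given for this gene. *Cgn* (cingulin) lay at 1.03, 1.27, 1.17 and 1.06, inside the range of the other arrays, and *Cgnl1* was 1.28-fold higher in ablated mice than in *hDTR* controls.

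All 3 polarity genes were lowest in ablated mice, by little. *Pard6g* lay at 2.24, 2.15, 2.15 and 1.96, *Pard6a* at -0.20, -0.33, -0.17 and -0.33 and *Pard3*, which places the junction at the apical border, at 0.27, 0.33, 0.30 and 0.21. *Pard6a* in DT-treated mice of both genotypes was equal to 2 decimals. The 4 probes of *Pard3* ranged from -0.17 to 0.19 in their log2 difference from the other arrays, and here too the sign depends on the probe. *Patj* has no probe under that name, but the probe named *Inadl*, an older name of it, lay at 0.19, 0.29, 0.32 and 0.26.

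Over the 30 members well above background on all 4 arrays, the median log2 difference between ablated mice and the mean of the other arrays was 0.16, with 21 above 0, beside -0.004 over all 18248 such genes. Of those 18248 genes, 8955 were above 0. The median over the members did not rest on *Cldn22*, since it was 0.15 over the other 29. With the 8 members that were dim on some arrays taken in, it was 0.23 over 38, a value set in part by the lowest detectable signal, which differs between arrays (*Cldn16*, dim in ablated mice, enters at 0.33). By class the median was 0.36 for 12 claudins, 0.24 for the 4 MARVEL proteins, 0.32 for the 4 immunoglobulin-type proteins, -0.10 for 7 plaque genes and -0.10 for the 3 polarity genes. All class medians were small beside the difference of *Cldn22*, 2.66. Of the 30 members, 20 were highest in ablated mice, 4 in *hDTR* controls, 4 in DT-treated wild-type and 2 in wild-type controls, while the shares over all genes were 33.5%, 19.1%, 15.8% and 31.7%. In ablated mice 14 members lay above the other 3 arrays by more than the range of those arrays, and 5 lay below them in the same way, beside 15.8% and 14.7% of all genes. The range of the other 3 arrays had a median of 0.12 on the log2 scale over the members and 0.14 over all genes.

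**Figure D3:**
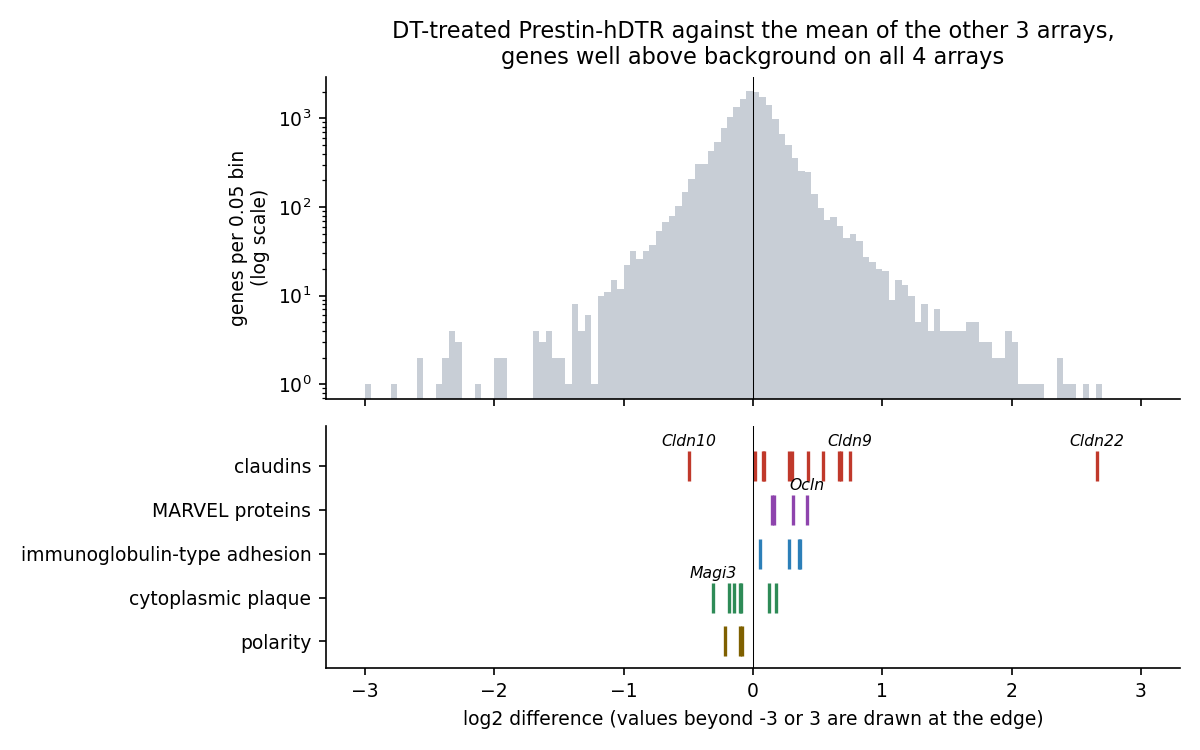
Upper part, number of genes (log scale) by their log2 difference between ablated mice and the mean of the other 3 arrays, for 18248 genes well above background on all 4 arrays. Lower part, the 30 members among them as ticks by class, where *Cldn22* stands at 2.66, the remaining claudins lie between -0.49 and 0.75, and the ticks of all 3 polarity genes lie below 0.

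The differences between DT-treated and untreated mice were set side by side in the 2 genotypes, which share no array. Over members measured on both arrays, the median log2 ratio was 0.20 in *Prestin*-*hDTR* mice (35 members, 25 above 0, beside -0.002 over all genes) and 0.04 in wild-type mice (31 members, 17 above 0, beside -0.03). Among all genes measured on both arrays, 49.7% were above 0 in *Prestin*-*hDTR* mice and 41.6% in wild-type mice. For *Cldn22* the log2 ratio was 2.58 in *Prestin*-*hDTR* and 0.70 in wild-type mice, and for *Cldn24* it was 3.18 and, as a bound, 1.07. *Cldn10* had ratios of -0.49 and -0.54. Without a replicate, the difference between the genotypes was not tested. With the transgene alone, in *hDTR* controls against wild-type controls, 24 of 33 members measured on both arrays were also above 0. Their median log2 ratio was 0.07, beside -0.02 over all genes, of which 45.1% were above 0. More members above than below 0 was therefore not particular to ablated mice.

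**Figure D4:**
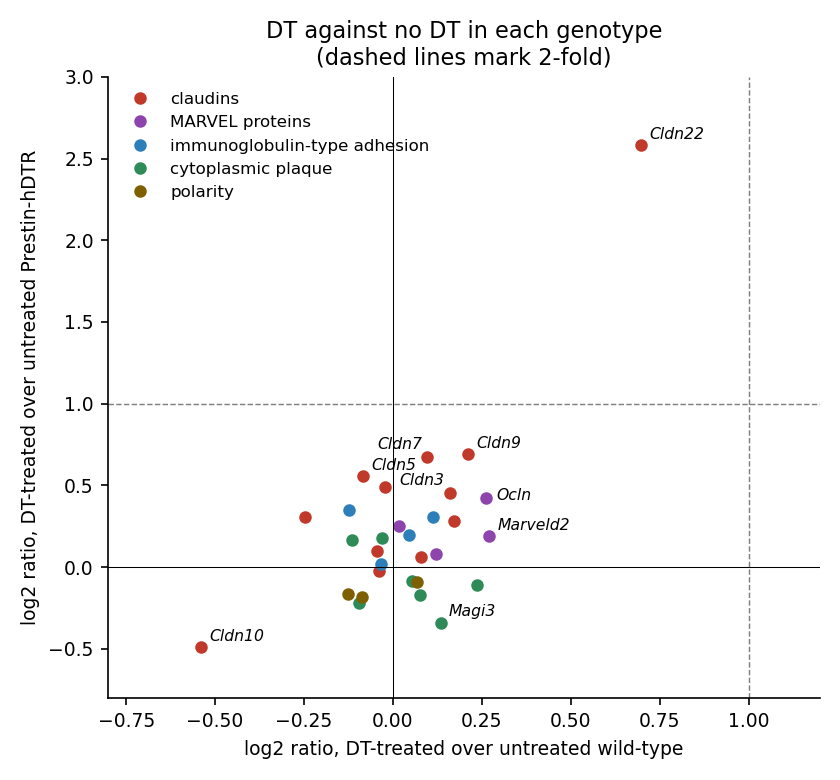
Log2 ratio of DT-treated to untreated mice in wild-type (horizontal axis) and in *Prestin*-*hDTR* mice (vertical axis) for the 30 members well above background on all 4 arrays, coloured by class, with dashed lines at 2-fold. Only *Cldn22* passes 2-fold in *Prestin*-*hDTR* mice and none does in wild-type mice, and *Cldn10* lies below 0 on both axes.

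*Cldn13*, a claudin of rodents, had a pattern of its own. It was well above background only in DT-treated wild-type mice, at -3.53, and dim at -6.61 in wild-type controls, -6.29 in *hDTR* controls and -5.24 in ablated mice. The signal in DT-treated wild-type mice was at least 5.25-fold that in wild-type controls and at least 3.27-fold that in ablated mice, and the call against ablated mice was lost with the normexp correction. With a weaker detection flag (positive and significant), *Cldn13* was also called higher in ablated mice than in both untreated groups. Of 6 genes of erythroid cells, 3 were called higher in DT-treated wild-type mice than in wild-type controls, *Kel* and *Gata1* among them. *Kel* lay at -5.46, -2.27, -5.37 and -3.87 in wild-type controls, DT-treated wild-type, *hDTR* controls and ablated mice and *Gata1* at -4.88, -2.22, -6.09 (dim) and -4.59. Both were highest on the array on which *Cldn13* was detected. The signals of the list, divided by the 75th percentile, summed to 65.0, 81.9, 78.0 and 84.3 in that order, with *Hba-a1* the brightest, so that the sum was highest in ablated mice. The part of erythroid cells in the *Cldn13* signal was not tested.

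The claudin differences were read beside markers of the cell types that use these claudins. Of 8 epithelial genes, of which *Elf3* and *Grhl2* also stand among the transcription factors below, 6 were highest in ablated mice, and their summed signal was 17.3, 19.7, 19.8 and 29.7 in the order above, with *Krt18* the brightest and none dim on any array. *Elf3*, an epithelial transcription factor, lay at -4.08, -3.91, -3.98 and -2.67, 2.48-fold higher in ablated mice than in *hDTR* controls, and *Krt8* at 1.41, 1.77, 1.72 and 2.66, called only against wild-type controls (2.38-fold). The median log2 difference of the 8 genes from the mean of the other arrays was 0.60, against 0.36 for the claudins. Of 9 endothelial markers, 0 were called, 1 was highest in ablated mice, and their median difference was -0.007. Their summed signal, with *Egfl7* the brightest, was 14.9, 13.8, 14.7 and 14.9, highest in ablated mice by little. The part of a changed share of epithelial or endothelial RNA in the claudin values was not tested.

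**Figure D5:**
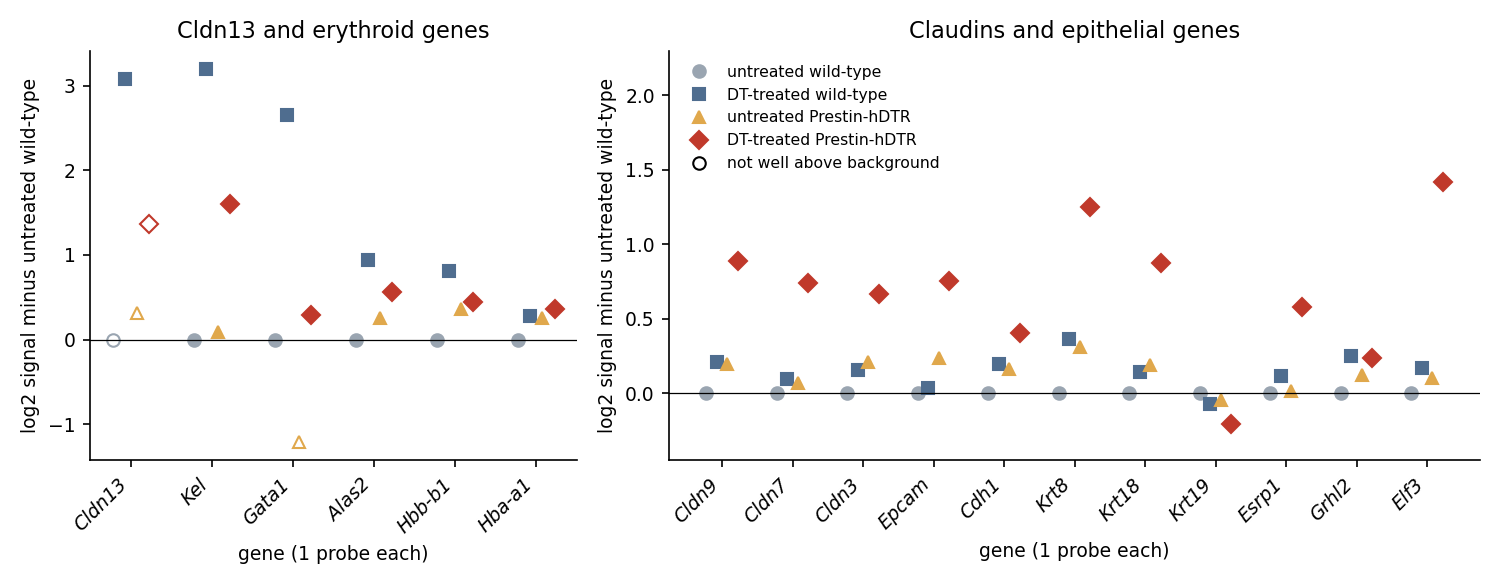
Log2 signal minus that of wild-type controls (vertical axis) on the 4 arrays, with open symbols where the probe was not well above background, for *Cldn13* and 5 of the 6 erythroid genes (left) and for 3 claudins and the 8 epithelial genes (right). *Cldn13*, *Kel* and *Gata1* are highest in DT-treated wild-type mice, whereas *Cldn9*, *Cldn7*, *Cldn3* and 6 of the 8 epithelial genes are highest in ablated mice.

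The partners of tight junctions were listed by role, and with so few genes in a list a count of 0 or 1 called is near the share over all genes given above. The angulins *Lsr* and *Ildr1*, which bring tricellulin to the points where 3 cells meet, lay at 2.69, 2.64, 2.67 and 2.88 and at 0.04, -0.01, 0.00 and 0.51. *Ildr1*, whose loss causes deafness, was 1.42-fold higher in ablated mice than in *hDTR* controls, and none of the 3 angulins was called in any comparison (median difference from the other arrays 0.22). Of 17 polarity partners, 13 adherens junction genes, 8 desmosome genes and 12 junction regulators, 0 were called in any of the 5 comparisons, and their median log2 differences from the mean of the other arrays were -0.04, 0.19, 0.26 and 0.07. Of 9 transcription factors of junction genes, only *Elf3* was called (median difference 0.11), and the Grhl, Snail, Zeb, Twist and *Ovol2* genes detected were not. Of the 9 gap junction genes compared, 0 were called between ablated mice and *hDTR* controls, and the median difference of the list was 0.00. *Cldn11*, the claudin of the basal cells of the stria vascularis, lay at 3.99, 4.02, 3.91 and 4.36, 1.37-fold higher in ablated mice than in *hDTR* controls.

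Claudins that lie next to each other on a chromosome were compared last. Within 150 kb in mm9 there are 7 pairs of claudin probes, and both genes were detected in 5 of them. *Cldn22* and *Cldn24*, 2661 bases apart, were both called higher in ablated mice than in *hDTR* controls. *Cldn6* and *Cldn9*, 1141 bases apart on opposite strands, had log2 ratios of 0.50 and 0.69 in that comparison. *Cldn3* and *Cldn4*, 41149 bases apart, had 0.45 and 1.11, and only *Cldn4* was called. *Cldn13*, in the same cluster, lay 31425 bases from *Cldn4* and had its highest signal on another array.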

How the data were processed

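The authors labelled cochlear RNA of each group with Cy3 (sexes pooled, per the labels), hybridised it to 1 Agilent mouse array (1 colour, 4 arrays on 1 slide) and deposited the output of Agilent Feature Extraction 11.5.1.1. The deposited intensity is linear, with the background subtracted by that software and no scaling between arrays. The deposited mean and background intensities served 1 alternative, and a further table from the authors gives that intensity as a ratio to 1 constant per array and served another.

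Of 43020 non-control spots per array, 149 to 228 outlier spots were left out. Spots of a probe were averaged, a flag holding when it held for more than 0.5 of them, and the 75th percentile of the array (an intensity of 2728 to 3162) was divided out before log2. No spot was saturated. A gene was compared unless its probe was dim on both arrays. With 1 array per group no test was run.

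The members and lists (5 classes, 7 lists of junction partners and 11 marker lists, given by role) were chosen with earlier results of these data known. Named by rule were *Cldn22*, members called in any comparison, the 2 largest rises and falls per class, deafness genes, neighbours of *Cldn22* and list genes called, at most 4 per list. Other members are named so that they are accounted for, and a few genes, counted in the totals, are not reported here by name. Of the alternatives, 8 were preset and 1, a 1.5-fold threshold, was chosen after seeing the data. Only the calling of changes was tested on simulated data, made from wild-type control values of genes well above background on all 4 arrays. The changes put in lay well beyond the threshold and the added noise. The scaling, the choice of probe and the handling of dim probes were not tested in this way. Computations used Python 3.11.15, numpy 2.4.6, pandas 2.3.3, matplotlib 3.10.9, and limma 3.58.1 (normexp, offset 50) in R 4.3.3.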

Additional observations from a re-analysis of the deposited data

Results flagged for a closer look

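Beside the members, 2 probes near *Cldn22* differed by 2-fold or more between ablated mice and *hDTR* controls. The probe of *Dctd* (deoxycytidylate deaminase), 286638 bases beyond *Cldn22* in mm9, was well above background only in ablated mice, at -4.83, and dim at -7.37 in wild-type controls, -7.24 in DT-treated wild-type and -7.44 in *hDTR* controls. Set against the lowest signal well above background, it was at least 2.96-fold higher than in *hDTR* controls (a log2 ratio of at least 1.57), at least 1.57-fold higher than in DT-treated wild-type mice and at least 2.14-fold higher than in wild-type controls. The probe *TC1628846*, on the other side of *Cldn22*, was well above background on all 4 arrays, at -4.49, -3.94, -2.74 and -4.68 in wild-type controls, DT-treated wild-type, *hDTR* controls and ablated mice, and was 3.85-fold lower in ablated mice than in *hDTR* controls. Both were singled out after their values were seen, because no comparison of the members uses them.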

How the results depend on the processing

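The log2 ratio of *Cldn22* lay between 2.51 and 2.60 against *hDTR* controls, 2.27 and 2.38 against DT-treated wild-type and 2.91 and 3.11 against wild-type controls over the 8 preset alternatives, and only the last moved by more than the error of repeated spots (0.10), to 2.91 with normexp. The median over the 38 members, 0.23, lay between 0.16 and 0.26. The counts of members changed moved more, since most called members were dim. Requiring a signal well above background on all 4 arrays left 1 called member, *Cldn22*, in each comparison with ablated mice and 0 for DT in wild-type mice. Normexp left 2 against DT-treated wild-type mice and 1, *Cldn13*, for DT in wild-type mice. Quantile normalization gave 5 against wild-type controls, adding *Cldn2* and *Cldn6*. For the transgene alone, 1 member, *Cldn24*, was called with quantile normalization, with the weaker detection flag (positive and significant), with no floor, and at 1.5-fold. At 1.5-fold the counts in the 3 comparisons with ablated mice were 5, 8 and 11, in the order of the ratios above. No direction turned among these results. For single genes, the mean over the probes of *Cldn7* gave a log2 ratio of 0.20 against *hDTR* controls in place of 0.67. No paired analysis was possible because each group has 1 array. Signals near background bound *Cldn24*, *Cldn4*, *Cldn13*, *Cldn2*, *Cldn6*, *Cldn15*, *Cldn16* and *Cgnl1* on at least 1 array, and with 4 arrays the precision of every value is limited.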

Other observations

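Of 9 supporting cell markers, 0 were called in a comparison with ablated mice and 1, *Otog*, was called higher in DT-treated wild-type mice than in wild-type controls (2.06-fold), and their median log2 difference from the mean of the other arrays was 0.10. Of 8 genes of the stria vascularis, *Cldn11* among them, *Tyr* alone was called, against wild-type controls (2.12-fold), with a median difference of 0.25. Of 7 macrophage markers, *Lyz2*, *Cd68* and *Emr1* were called higher against all 3 other arrays, at 4.28-fold, 2.76-fold and 2.28-fold over *hDTR* controls, 6 were highest and 1, *Itgam*, lowest in ablated mice. Of 7 genes of stratified epithelium, 2, *Sprr1a* and *Cdsn*, rose 27.9-fold and 6.22-fold in that comparison, while the median difference of the 6 genes of their list measured on all arrays was 0.08, with 3 highest and 3 lowest in ablated mice. *Sprr1a* was near background on the other arrays, at -6.12 (dim), -4.98 and -5.93.

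Lists of cells from outside the organ of Corti differed between arrays in other ways. *Bpifa1*, of airway-type and middle ear epithelium, was lower in ablated mice than in *hDTR* controls (2.47-fold), and the median difference of the 4 genes of its list measured on all arrays was -0.46. The 6 neutrophil genes were all called lower in *hDTR* controls than in wild-type controls, with *Mpo*, *Camp*, *Ngp* and *Ltf* at 4.39-fold, 4.05-fold, 3.69-fold and 2.67-fold, and their summed signal was 36.7, 57.2, 12.9 and 21.3 in wild-type controls, DT-treated wild-type, *hDTR* controls and ablated mice. The 6 Schwann cell genes had a summed signal of 179.6, 124.9, 145.8 and 149.2 in the same order, and 0 of them were called in any comparison.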
